A study of Mus musculus with 16 samples.

Results

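Voltage-gated sodium and calcium channel genes and the related hyperpolarization-activated channel genes were examined in brain tumours of a mouse model and in normal mouse brain. They were all genes whose symbol on the array platform begins with Scn and a digit, Cacna, Cacnb or Cacng, together with the Hcn genes. The platform names 36 such genes with 80 probes, and 28 of them had a probe whose detection p-value was below 0.05 on 3 or more of the 16 arrays. These 28 stand among 11755 genes measured in the same way. The Illumina bead arrays measured total RNA of flash-frozen brain tissue, on 5 arrays of dorsal control tissue, 3 of ventral control tissue and 8 of tumour tissue, each from a different sample. The tumours, which the study titles high-grade glioma, arose in mice after tumour suppressor genes had been removed by an inducible Cre recombinase. They were collected when the animals showed neurological symptoms, and the controls came from matching regions of control mice. Which genes were removed, the genotype of the control mice, the region of each tumour, and the age, sex and number of animals are not given in the sources used here. Controls are called biological replicates and tumours independent tissues in the labels, and nothing there says that each came from a separate animal, so the p-values measure the spread between these samples.

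A voltage-gated sodium channel is a large pore-forming alpha subunit, encoded by a gene such as Scn1a, joined by small beta subunits, and it carries the rising phase of the action potential. A voltage-gated calcium channel is a pore-forming alpha1 subunit (Cacna1 genes) with an intracellular beta subunit (Cacnb) and an extracellular alpha2delta subunit (Cacna2d), which help the pore reach the membrane, and it couples depolarization to transmitter release, gene expression and rhythmic firing. Most brain members of the Cacng family are not calcium channel subunits in their main role but TARPs, which carry AMPA-type glutamate receptors to the synapse and set their gating. The Hcn channels open on hyperpolarization and carry a mixed cation current that sets resting potential and rhythm.

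All levels below are log2 signals after background correction and quantile normalization, and all changes are differences of log2 signal from a limma model of the 3 groups, given with their standard error (SE) and with a p adjusted by Benjamini-Hochberg over the 11755 genes. Passing means that this p was below 0.05. Each gene is represented by its probe with the highest mean, and 15 of the 28 had other kept probes, whose changes are given beside it. Levels of different genes are not compared, because probes differ in brightness. Between 17565 and 20430 of 45281 probes were detected on an array. Of the 28 genes, 23 to 26 were detected on each control array and 15 to 22 on each tumour array. Brain identity of the controls was clear from the neuronal markers, all 11 of which were detected on each of the 3 ventral controls and 10 of which were detected on each of the 5 dorsal controls.

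Dorsal controls 4 and 5 stood apart from the other dorsal controls. Their score of striatal projection neuron markers (the mean, over the markers, of the log2 signal minus the mean of both control groups) was 2.42 and 3.08, against -1.33 to -1.21 in dorsal controls 1 to 3. The ventral controls carried hypothalamic markers. Pmch, the precursor of melanin-concentrating hormone, had a mean level of 14.05 there and 4.73 in dorsal controls. The 16 arrays lay on 3 bead chips. Chip 1 held 1 dorsal control, 1 ventral control and tumours 6 to 8, chip 2 held dorsal controls 2 to 4 and tumours 1 and 2, and chip 3 held dorsal control 5, 2 ventral controls and tumours 3 to 5.

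Against the mean of both control regions, 20 of the 28 channel genes were lower in the tumours, 1 was higher and 7 did not pass. Over all 11755 genes, 26.7% were lower and 27.3% were higher. The median change of the 28 was -1.53 on the log2 scale, while the median over all genes was 0.01. The changes ran from -4.88 for Scn4b to 1.43 for Cacng4. In 12 of the 28 genes every tumour lay below every control, as in 10.1% of all genes, and in 0 of the 28 did every tumour lie above every control, as in 10.6% of all genes. Detection chose the genes, so part of this count was bound to fall: Cacna1b, Cacng2 and Cacng8 were detected on control arrays only, and Scn7a on tumour arrays only. Of the 13 genes detected on all 16 arrays, 9 were lower, 1 was higher and 3 did not pass. The shares among all genes detected on all 16 arrays were not computed, so this count has no background beside it. Within chip 1 the 21 genes all kept their sign, and within chip 3 all but Cacng4 did, with medians over the 28 of -1.14 and -1.61. The arrays of each chip were among those that gave the calls, so this is not an independent check. With chip as a block, fixed or random, 21 passed.

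The sizes of the falls depended on the background correction. With none, the median change of the 28 genes was -0.65, and that of Scn4b was -2.85 in place of -4.88, while the same 21 genes passed.

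**Figure D1:**
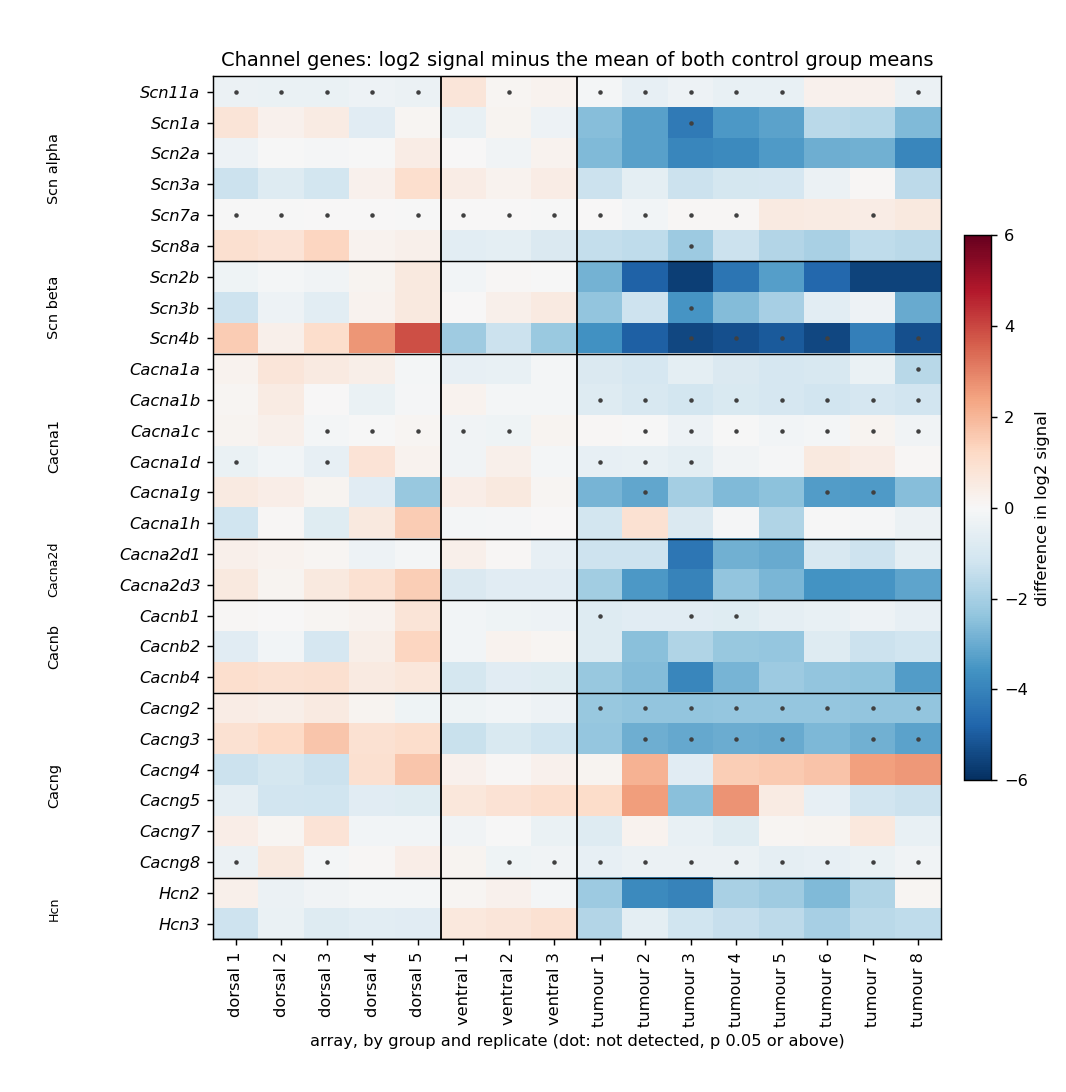
Log2 signal of each of the 28 channel genes (rows, by subfamily) on each of the 16 arrays (columns), minus the mean of the dorsal and ventral control means; blue is lower and red is higher, and a dot marks an array on which the gene was not detected. The 8 tumour columns are blue in most rows, with Cacng4 the row that is red in most tumours and Scn4b the row that differs most between dorsal and ventral controls.

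Neuronal markers were lower as well. Of 11 measured pan-neuronal markers, 10 were lower in the tumours, with a median change of -3.38, and the pan-neuronal score was -4.10 to -1.53 in tumours, -0.63 to 0.46 in dorsal and -0.18 to -0.04 in ventral controls. No pan-neuronal marker was absent from the tumours: each of the 11 was detected on at least 7 of 8. Markers of GABAergic neurons were lower in 8 of 8 cases, those of glutamatergic neurons in 5 of 5 and those of striatal projection neurons in 7 of 9, with 0 higher. In bulk tissue, fewer neurons and less RNA per neuron cannot be told apart, and the part of the neuronal share in the channel changes was not tested. Among other cells, myelin markers were lower in 6 of 8 cases and astrocyte markers in 6 of 10, with 1 astrocyte marker higher, while proliferation markers were higher in 6 of 6 and microglial and macrophage markers in 5 of 8. Endothelial and mural markers were lower in 1 of 8. Markers of thalamus, hypothalamus and brainstem were lower in 7 of 11 and higher in 2, cerebellar markers were lower in 1 of 4 and higher in 2, and 1 of 2 skeletal muscle markers was lower.

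Among the pore-forming sodium channel subunits, 4 of 6 measured genes were lower in the tumours and 0 were higher. Scn2a, the pore subunit of excitatory neurons and their axons, had levels of 9.02, 9.31, 9.27, 9.31 and 9.76 in dorsal controls, 9.33, 9.11 and 9.52 in ventral controls, and 5.41 to 6.68 with a median of 6.01 in tumours. No tumour reached a control, and the gap between the groups was wider than the range within either. The change was -3.34 ± 0.20 (SE), or 10.1-fold lower (adjusted p = 2.86e-09). Its other kept probes gave -3.02, -2.96 and -0.56.

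Scn1a, the pore subunit that inhibitory interneurons rely on and whose loss causes severe childhood epilepsy in humans, had levels of 9.51, 8.98, 9.24, 8.08 and 8.84 in dorsal controls. The ventral controls were at 8.31, 8.89 and 8.43, and the tumours at 4.50 to 7.10 with a median of 5.81. Again the tumours lay below all 8 controls, but with more spread: tumours 6 and 7 kept the highest levels and tumour 3, where the gene was not detected, the lowest. The change was -2.83 ± 0.34 (7.12-fold, adjusted p = 3.66e-06).

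Scn8a, the main pore subunit of the mature axon initial segment and of nodes of Ranvier, changed by -1.66 ± 0.17 (adjusted p = 6.93e-07), and its other probe by -1.88. Scn3a, the pore subunit most abundant before birth, fell least, by 0.89 ± 0.32 on the log2 scale (adjusted p = 0.0278), and only 1 tumour lay below all controls. Its levels in dorsal controls 4 and 5, 8.57 and 9.36, were above the 7.02 to 7.57 of the other 3. Without those arrays the change was -0.56 and did not pass (adjusted p = 0.0637), and neither did its dimmer probe, at 0.17, or the mean over both probes, at -0.36. Leaving out ventral control 1, ventral control 3 or tumour 8 also left it short of the threshold (adjusted p of 0.0568, 0.0551 and 0.0527).

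The remaining pore subunits were near background. Scn7a, a sodium-sensing relative expressed in glia, and Scn11a, best known from sensory neurons of pain pathways, did not pass, at 0.26 (adjusted p = 0.0751) and -0.20 (adjusted p = 0.224). Scn7a passed with array weights, a trend and robust variance prior, or tumours 1 and 3 left out (adjusted p from 0.0326 to 0.0436), and Scn11a with scaling on the kept probes (-0.43, adjusted p = 0.0196). Scn7a was detected on 3 tumours and 0 controls. Scn10a, another sensory neuron channel, was named by the platform and not measured.

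The sodium channel beta subunits held the deepest falls, and 3 of 3 were lower. Scn4b, whose intracellular tail can block the open pore and allow resurgent current, had levels of 11.27, 10.08, 10.84, 12.41 and 13.62 in dorsal controls, 7.64, 8.49 and 7.54 in ventral controls, and 4.31 to 6.13 with a median of 4.63 in tumours. The 3 groups did not overlap, and this probe was detected on 3 of 8 tumours. The change from the mean of both regions was -4.88 ± 0.43, or 29.5-fold at the measured signals (adjusted p = 1.70e-07), and -4.66 with signals below background raised to it. A second, dimmer probe, detected on all 16 arrays, gave -0.60 (adjusted p = 0.0218).

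Scn2b, a beta subunit bound to the pore by a disulphide bridge, had levels of 10.55, 10.70, 10.61, 11.01 and 11.42 in dorsal controls. The ventral controls were at 10.67, 10.90 and 10.79, so the regions overlapped, and the tumours at 5.18 to 8.00 with a median of 6.04. Tumours 1 and 5 kept the most, at 8.00 and 7.51. The change was -4.60 ± 0.38 (24.3-fold, adjusted p = 7.02e-08), with -4.05 and -0.94 from the other probes. Scn3b, a beta subunit not bound covalently, changed by -1.96 ± 0.43 (adjusted p = 0.00127), with 5 of 8 tumours below every control. Its other probes gave -0.52, which did not pass, and -0.66.

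Scn2b and Scn4b lie next to each other in the RefSeq annotation of GRCm38.p6, with 0 annotated genes between them, and are shown as the pair with the largest falls. Their promoter windows, 250 bases before to 50 bases after the annotated start, are taken from RefSeq, at chr9:45117626-45117925 on the plus strand for Scn2b and chr9:45138374-45138673 on the plus strand for Scn4b, and hold 38.3% and 66.3% G and C.
Scn2b: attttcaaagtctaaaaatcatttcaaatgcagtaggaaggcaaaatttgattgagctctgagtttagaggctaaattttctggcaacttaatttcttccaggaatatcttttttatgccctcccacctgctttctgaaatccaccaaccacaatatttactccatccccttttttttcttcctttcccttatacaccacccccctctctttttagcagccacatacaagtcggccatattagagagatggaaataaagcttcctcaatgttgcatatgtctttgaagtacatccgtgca
Scn4b: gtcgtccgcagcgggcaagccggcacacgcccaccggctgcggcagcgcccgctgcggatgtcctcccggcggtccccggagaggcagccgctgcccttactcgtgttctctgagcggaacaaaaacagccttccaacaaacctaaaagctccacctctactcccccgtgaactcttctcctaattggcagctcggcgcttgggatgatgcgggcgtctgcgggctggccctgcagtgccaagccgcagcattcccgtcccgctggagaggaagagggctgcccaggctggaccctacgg

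Of the calcium channel pore subunits, 3 of 6 measured genes were lower and 0 were higher. Cacna1g, a low-voltage-activated T-type pore that drives burst firing in thalamus, had levels of 8.31, 8.16, 7.92, 7.11 and 5.52 in dorsal controls, 8.17, 8.35 and 7.89 in ventral controls, and 4.35 to 5.75 with a median of 5.05 in tumours. Dorsal control 5 sat inside the range of the tumours, and the other 7 controls above it. The change was -2.80 ± 0.34 (6.95-fold, adjusted p = 4.89e-06).

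Cacna1a and Cacna1b encode the P/Q-type and N-type pores that trigger transmitter release at most synapses. Cacna1b was detected on all 8 controls and on 0 tumours and was at least 1.6-fold lower (adjusted p = 3.42e-06), with -0.26 and -0.59 from its other probes. Cacna1a changed by -0.92 ± 0.17 (adjusted p = 0.000255), while its other probe gave 0.05. The L-type pores Cacna1c and Cacna1d, which link activity to gene expression, gave -0.08 and -0.09 and did not pass, with Cacna1c detected on 4 of 16 arrays and 0.03 from the other probe of Cacna1d. The T-type pore Cacna1h was detected on every array and also did not pass, at -0.43 ± 0.40 (adjusted p = 0.381). Its dorsal controls ranged from 7.94 to 10.67 and its tumours from 7.30 to 10.03, so the groups overlapped almost fully. Cacna1e, Cacna1f and Cacna1i were not measured.

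The accessory calcium channel subunits were lower in 5 of 5 cases. Cacna2d3, an alpha2delta subunit, had levels of 10.18, 9.74, 10.18, 10.49 and 11.04 in dorsal controls, 8.70, 8.92 and 8.90 in ventral controls, and 5.59 to 7.47 with a median of 6.27 in tumours. The groups were separate, with the ventral controls between the others. The change was -3.11 ± 0.26 (8.64-fold, adjusted p = 1.01e-07).

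Cacna2d1, the binding site of gabapentin, changed by -1.95 ± 0.46 on its brightest probe (adjusted p = 0.00194), with tumours from 5.76 in tumour 3 to 9.52 in tumour 8 and every tumour below every control. Its probes disagreed. A second one, detected on 7 arrays, rose by 0.92 (adjusted p = 0.0104), the remaining one gave -0.05, and the mean over the 3 did not pass, at -0.36 (adjusted p = 0.260). Cacna2d4 was not measured.

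Cacnb4, the beta subunit mutated in the lethargic mouse, had levels of 11.23, 11.15, 11.16, 10.74 and 10.90 in dorsal controls. Ventral controls were at 9.15, 9.54 and 9.47 and tumours at 6.30 to 8.02 with a median of 7.70. The 3 groups did not overlap, and the change was -2.74 ± 0.22 (6.68-fold, adjusted p = 7.13e-08), with -1.52 and -0.94 from other probes. Cacnb2, a beta subunit prominent in heart and also found in brain, changed by -1.62 ± 0.34 (adjusted p = 0.00079) and Cacnb1, the beta subunit of skeletal muscle that brain also expresses, by -0.58 ± 0.12 (adjusted p = 0.000636). The other Cacnb2 probes gave -1.45, -0.23 and -0.68, and the other Cacnb1 probe gave -0.20.

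The Cacng family split. Of 6 measured members, 3 were lower, 1 was higher and 2 did not pass. Cacng3, a TARP of forebrain neurons, had levels of 8.49, 8.77, 9.23, 8.48 and 8.65 in dorsal controls, 6.23, 6.67 and 6.39 in ventral controls, and 4.37 to 5.27 with a median of 4.61 in tumours. It was detected on 2 of 8 tumours, and the 3 groups did not overlap. The change was -2.89 ± 0.15, or 7.40-fold at the measured signals (adjusted p = 5.61e-10), and -2.66 with signals below background raised to it. The other probe gave -1.77. Cacng2, or stargazin, the TARP whose loss causes the stargazer mouse, was detected on all 8 controls at 6.40 to 7.25 and on 0 tumours, and was at least 3.68-fold lower (adjusted p = 2.56e-10). Cacng8, a TARP abundant in hippocampus, was detected on 4 controls and 0 tumours and was at least 1.04-fold lower (adjusted p = 0.0179), a call that was lost with signals below background raised to it (adjusted p = 0.0935) or with array weights (adjusted p = 0.0839), and without ventral control 1 (adjusted p = 0.0620).

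Promoter windows of the same kind were held for 21 of the 28 genes, 31 windows in all, and not for Cacna1a, Cacna1g, Cacna1h, Cacng4, Hcn3, Scn3a and Scn3b. CAGCTG, an E-box of the kind bound by basic helix-loop-helix factors, which reads the same on both strands, occurred in 12 of these 31 windows (38.7%), from 11 genes, and in 16.3% of all 32851 windows of the same length. Windows of 1 gene can overlap. The E-box is given first because its matches had been seen, out of 11 motifs searched on both strands. It has no match in the windows of Scn2b and Scn4b printed above. The 8-letter sequence TCAGCACC, part of the element bound by the neuronal gene repressor REST, and TGACGTCA, the cyclic AMP response element, occurred in 0 of the 31 windows and in 1.65% and 1.79% of all. The others were ACAAAG (19.4% of the 31 and 18.7% of all), GGACAG (16.1% and 22.2%), AGCGCC (22.6% and 15.5%), TGACG (12.9% and 20.8%), GGACAGCG (3.23% and 1.26%), and CAGCACC, TTCAGCACC and GTCCAT (0 of 31, and 7.14%, 0.371% and 9.27% of all). TTCAGCACC, TCAGCACC and CAGCACC overlap, as do GGACAG with GGACAGCG and TGACG with TGACGTCA. A match describes these letters and shows no binding. For sequences as rare as 1.65% and 1.79% of all windows, 0 matches in 31 windows does not show a lack. Bases outside the windows were not searched.

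Cacng4, a TARP that immature brain and oligodendrocyte progenitors express, was the 1 channel gene that rose. Its levels were 5.92, 6.16, 5.88, 8.13 and 8.87 in dorsal controls, 7.43, 7.28 and 7.45 in ventral controls, and 6.53 to 9.78 with a median of 8.84 in tumours. The groups overlapped: 4 of 8 tumours lay above every control, and dorsal controls 4 and 5 above every ventral control. The change was 1.43 ± 0.53 (2.69-fold, adjusted p = 0.0315), and it was lost when dorsal control 1, 2 or 3, any ventral control, or tumour 2, 6, 7 or 8 was left out (adjusted p up to 0.0613). It was 1.93 without dorsal controls 4 and 5 (adjusted p = 0.0024). Within chip 3, where the 1 dorsal control was replicate 5, it was -0.13, and within chip 1 it was 2.78. Markers of oligodendrocyte progenitors rose in 10 of 12 cases, with scores of 0.40 to 2.94 in tumours, -0.46 to 0.02 in dorsal and 0.22 to 0.36 in ventral controls. Tumours 3 and 1 had both the lowest such scores of the tumours, 0.40 and 1.11, and the lowest Cacng4 levels, 6.53 and 7.36. Dorsal controls 1 to 3 were the lowest of all arrays in both. Dorsal controls 4 and 5 went the other way: their scores, 0.02 and -0.18, lay below every ventral control and their Cacng4 levels above. The part of these cells in the rise was not tested.

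Cacng5, of a second class of TARPs, varied most among the tumours of all 28 genes. The tumours ran from 5.65 to 10.84 with a median of 8.15 (SD 1.86, n = 8), while dorsal controls were at 7.64, 7.02, 6.97, 7.49 and 7.42 and ventral controls at 8.82, 9.03 and 9.16. Tumours 1, 2 and 4 lay above every control and tumours 3 and 8 below every control. The mean change was 0.17 ± 0.64 (adjusted p = 0.838), and 0.36 and 0.18 on other probes. Cacng7, of the same class, gave -0.16 and did not pass (adjusted p = 0.570). Cacng1 and Cacng6, the members that belong to muscle calcium channels, were not measured.

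Both measured Hcn genes were lower. Hcn2, the cyclic AMP-sensitive form of thalamus and many other brain regions, had levels of 10.29, 9.63, 9.77, 9.84 and 9.87 in dorsal controls, 10.11, 10.26 and 9.87 in ventral controls, and 5.97 to 10.11 with a median of 7.83 in tumours. Tumour 8, at 10.11, lay at the control level, and the other 7 tumours, at 5.97 to 8.18, below every control. The change was -2.30 ± 0.45 (4.92-fold, adjusted p = 0.000416). Tumour 8 also had the lowest pan-neuronal score of the tumours, -4.10. Hcn3, a form with little response to cyclic AMP, changed by -1.45 ± 0.18 (adjusted p = 5.51e-06), with 6 of 8 tumours below every control. Hcn4 was not measured.

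**Figure D2:**
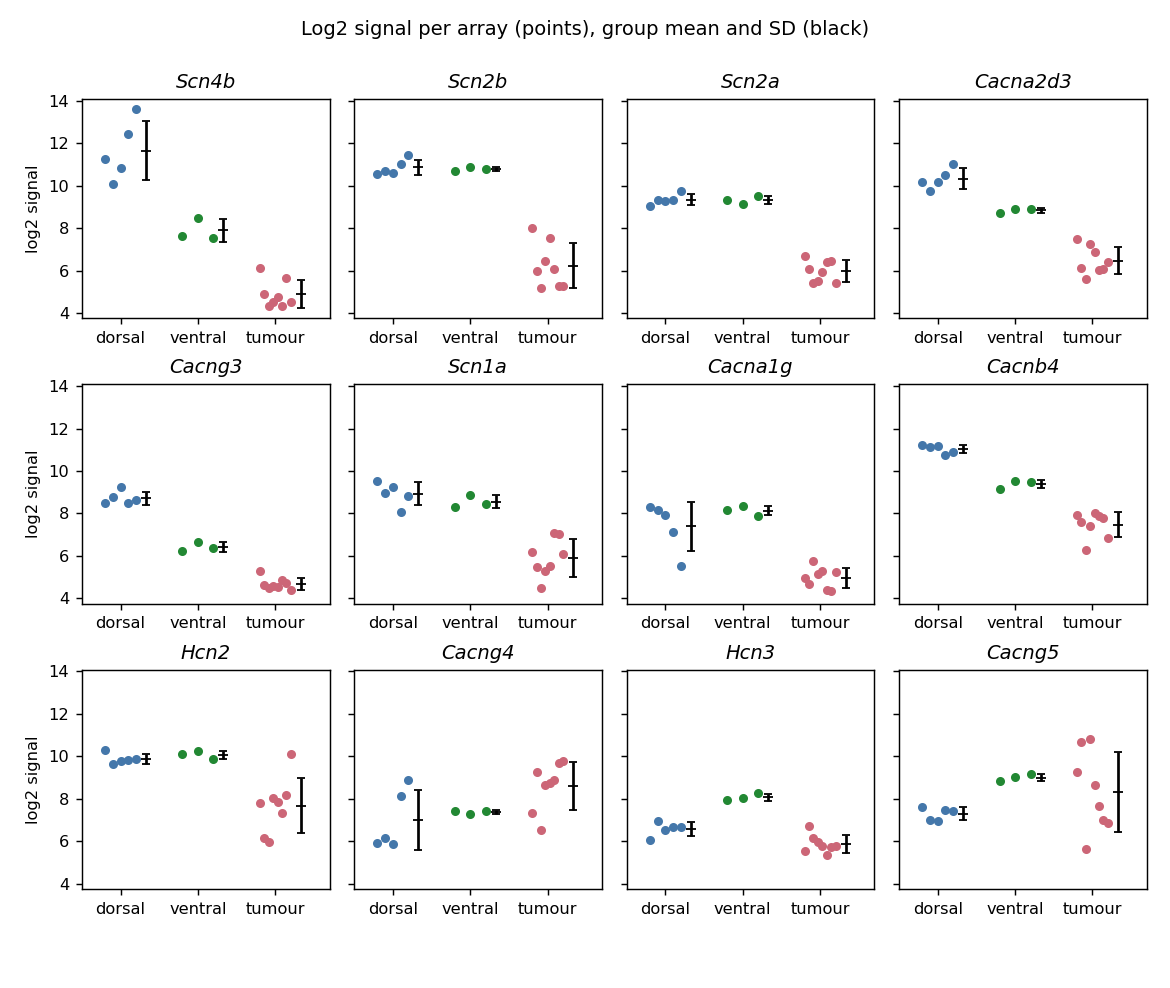
Log2 signal of 12 channel genes on each array (points) for dorsal controls, ventral controls and tumours, with the group mean and SD in black. Tumours lie below all controls for Scn4b, Scn2b, Scn2a, Cacna2d3, Cacng3, Scn1a and Cacnb4, 1 tumour reaches the control level for Hcn2, and the tumours spread from 5.65 to 10.84 for Cacng5.

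Each control region was also compared with the tumours on its own. These comparisons share the 8 tumours. Against dorsal control 19 channel genes were lower and 1 was higher, where 24.2% and 26% of all genes were, with a median change of -1.42. Against ventral control 18 were lower and 0 were higher, where 21.1% and 19.6% of all genes were, with a median change of -1.47, or -1.45 once genes not detected in 1 of the groups are set to their bound. A total of 16 were lower against both regions. Some of these calls were lost under another setting. Cacna2d1 lost both with the mean of its probes (adjusted p of 0.244 and 0.532). Scn8a lost the one against ventral control with no background correction (adjusted p = 0.0533). Against dorsal control, Scn3b did not pass with the mean of its probes and without dorsal controls 4 and 5 (adjusted p of 0.0911 and 0.105), and Hcn3 with median scaling and without those controls (adjusted p of 0.109 and 0.0591). Cacna1a, Cacnb1 and Cacng8 passed against dorsal control alone, and Scn3a and Scn11a against ventral control alone; of these 5 genes, the difference between the regions itself passed for Scn11a alone. This sorting depended on the settings. Against ventral control Cacna1a also passed with array weights, scaling on the kept probes, background raised or tumours 1 and 3 left out (adjusted p from 0.00432 to 0.0437), and Cacnb1 with array weights or without dorsal controls 4 and 5 (0.0177 and 0.0399). Cacng8 was lost against dorsal control with array weights and without dorsal controls 4 and 5 (0.0583 and 0.0661). The regional difference of Scn3a was 0.75 and did not pass, but without dorsal controls 4 and 5 it was 1.43 and passed (adjusted p = 0.0213), as it did with array weights (0.00226). That of Cacna1a passed with array weights, the replicate block or no background correction (adjusted p up to 0.0432), and that of Cacnb1 with array weights or the mean of its probes (adjusted p up to 0.0252).

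The brightest Scn4b probe was not above background on 5 of 8 tumours. Its change was -6.76 ± 0.49 against dorsal control (adjusted p = 2.41e-08) and -3.00 ± 0.58 against ventral control (adjusted p = 0.000623). With no background correction the latter was -1.25 and did not pass (adjusted p = 0.0565). The second Scn4b probe, detected on all 16 arrays, gave -0.90 against dorsal control (adjusted p = 0.00443). Against ventral control it gave -0.31 and did not pass (adjusted p = 0.398). Cacng4 was higher against dorsal control (1.63 ± 0.59, adjusted p = 0.0313) and did not pass against ventral control (1.23 ± 0.70, adjusted p = 0.179). Without tumours 1 and 3 it passed there (1.79, adjusted p = 0.0220). Those tumours have the lowest Cacng4 levels, so leaving them out was bound to enlarge the rise. With chip as a fixed block the difference of Cacng4 from dorsal control also missed the threshold (adjusted p = 0.0845). The same held without dorsal control 1, 2 or 3 or tumour 2, 7 or 8 (adjusted p up to 0.0933). The changes of Scn3a and Scn11a against ventral control were -1.27 ± 0.43 and -0.56 ± 0.18. With the mean of its probes Scn3a gave -0.57 (adjusted p = 0.193). With signals below background raised to it Scn11a gave -0.21 (adjusted p = 0.141). Scn3a did not pass when any 1 ventral control was left out (adjusted p up to 0.0861), nor Scn11a without ventral control 1 (adjusted p = 0.167) or Cacna2d1 without ventral control 1 or 2 (adjusted p of 0.0831 and 0.0659).

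The regions of normal brain differed in a few channel genes. Between ventral and dorsal controls, 5 of the 28 were lower in ventral brain and 2 were higher, where 4.3% and 5.16% of all genes were. The largest difference was that of Scn4b, at -3.76 ± 0.62 on its brightest probe (adjusted p = 0.000942). Its second kept probe, dimmer but detected on all 16 arrays, gave -0.58 and did not pass (adjusted p = 0.307). On the brightest probe dorsal controls 4 and 5, at 12.41 and 13.62, were the highest, and without them the difference was -2.85 (adjusted p = 0.00147). They are also the arrays with striatal markers, and the part of striatal tissue in this level was not tested.

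Cacng3 was -2.30 ± 0.21 in ventral relative to dorsal control (adjusted p = 3.68e-06) and Cacnb4 -1.65 ± 0.32 (adjusted p = 0.00331). For both, each of the 3 ventral values given above lay below each of the 5 dorsal values. The mean over the 3 kept probes of Cacnb4 did not pass, at -0.77 (adjusted p = 0.0673). Its probes disagreed in sign: the others gave -1.37 (adjusted p = 0.000161) and 0.70, which did not pass (adjusted p = 0.396). Cacna2d3 differed by -1.48 ± 0.38 (adjusted p = 0.0197), which did not pass without dorsal controls 4 and 5 (-1.19, adjusted p = 0.0960) or without any 1 ventral control (adjusted p up to 0.0922). Scn8a differed by -1.43 ± 0.24 (adjusted p = 0.0012), and by -1.43 on its other probe.

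Hcn3 was higher in ventral brain. Its ventral levels were 7.95, 8.04 and 8.26, its dorsal levels 6.08, 6.95, 6.55, 6.70 and 6.66, and the tumours, at 5.36 to 6.75 with a median of 5.79, lay near or below the dorsal ones. The difference was 1.49 ± 0.26 (adjusted p = 0.00136). Scn11a was higher too, at 5.41, 4.84 and 4.94 in ventral controls against 4.32 to 4.39 in dorsal controls, where it was undetected, which makes it at least 1.09-fold higher (adjusted p = 0.0293). That call was lost with signals below background raised to it (0.14, adjusted p = 0.605) and without ventral control 1 or 3 or dorsal control 1, 2 or 3 (adjusted p up to 0.205). Within chips 1 and 3 the 7 genes kept their sign. These chips hold every ventral control, so the check reused arrays that gave the calls. Cacng5 was 1.70 ± 0.92 higher in ventral brain and did not pass (adjusted p = 0.330). Its 3 ventral levels lay above all 5 dorsal ones, and the model takes its spread from all 3 groups.

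**Figure D3:**
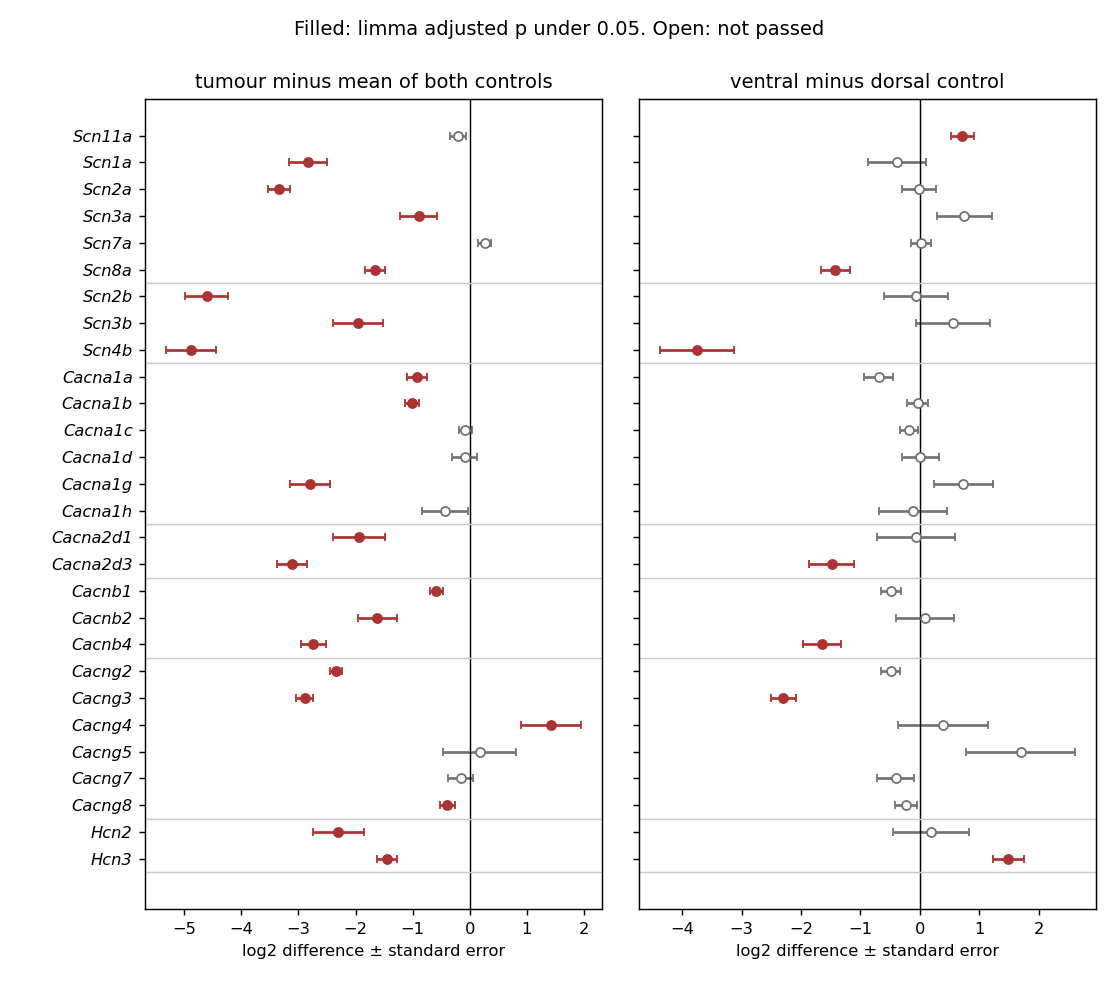
Change in log2 signal with its standard error for each of the 28 channel genes, tumour minus the mean of both controls on the left and ventral minus dorsal control on the right, with filled points past an adjusted p of 0.05. On the left 20 genes are filled below 0 and Cacng4 above it; on the right 5 are filled below 0 and Hcn3 and Scn11a above it.

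Genes that work with these channels were counted by list, in the tumours against both regions. Of 11 measured partners of sodium channels at the axon initial segment, 8 were lower and 0 were higher, with a median of -0.95. The largest changes were those of Fgf13, an intracellular regulator of sodium channels (-3.42 ± 0.37, adjusted p = 1.26e-06), and Sptbn4, the spectrin that anchors them (-2.99 ± 0.16, adjusted p = 9.67e-10). Ank3, the ankyrin that organises the segment, changed by -1.79 ± 0.28, while Nfasc and Cntn1, adhesion molecules that glia also express, gave -0.01 and 0.73 and did not pass. The sodium leak channel Nalcn and its partners Unc79 and Unc80 were lower in 3 of 3 cases, with a median of -1.10 and the largest changes in Nalcn (-1.64) and Unc80 (-1.10).

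Of 11 calcium channel partners at release sites and inhibitory RGK proteins, 8 were lower and 1 was higher. Syt1, the calcium sensor of release, and Stx1a, a fusion protein that binds the channels, changed most (-3.38 ± 0.33 and -3.02 ± 0.38). The 1 gene that rose was Cask, a scaffold kinase (1.37 ± 0.12, adjusted p = 1.52e-07). Of 19 genes of calcium release, extrusion and store entry, 13 were lower and 3 were higher, with a median of -0.99. The largest falls were those of the membrane calcium pump Atp2b2 (-4.22 ± 0.33) and the release channel Ryr2 (-3.39 ± 0.31). The genes that rose were Itpr2, an inositol trisphosphate receptor of glia (2.20 ± 0.32), Orai1, the store-operated channel (1.74 ± 0.25), and Itpr3 (0.72 ± 0.19). Of 6 AMPA receptor genes and scaffolds, 5 were lower and 0 were higher, with the largest changes in the scaffold Dlg4 (-3.32 ± 0.23) and the subunit Gria1 (-3.28 ± 0.57). Of 2 Hcn partners, Pex5l, which guides Hcn channels to dendrites, was lower (-1.47 ± 0.25) and Flna, an actin crosslinker of many cell types, was higher (1.63 ± 0.30).

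Whether the channel genes followed the neuronal markers from tumour to tumour was tested across the 8 tumours for all 28 genes, with exact permutation tests. After adjustment over the 28 genes 0 passed by Pearson's r and 0 by Spearman's rho, while 7 and 4 had an unadjusted p under 0.05. Pearson's r was above 0 for 18 of the 28 genes. Cacna1g, Cacnb1, Hcn2 and Hcn3, which were lower in the tumours, had r of -0.34, -0.32, -0.32 and -0.23. Cacng3 had r = 0.91 (exact p = 0.00208, adjusted 0.0583) and rho = 0.79 (exact p = 0.0279, adjusted 0.195), but it was detected on only 2 of the 8 tumours. Scn2b had r = 0.83 (exact p = 0.00717, adjusted 0.0850) and rho = 0.86 (exact p = 0.0107, adjusted 0.144), and Scn2a had r = 0.80 (exact p = 0.0091, adjusted 0.0850) and rho = 0.71 (exact p = 0.0576, adjusted 0.269). Cacnb4 had r = 0.72 (exact p = 0.0482, adjusted 0.193) and rho = 0.83 (exact p = 0.0154, adjusted 0.144).

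Tumours 1 and 8, at the 2 ends of the score, were then left out. Over the remaining 6 tumours r was 0.58 for Cacng3, 0.63 for Scn2b, 0.61 for Scn2a and 0.84 for Cacnb4, with exact p of 0.229, 0.171, 0.176 and 0.0278. With 6 tumours and a narrower range of scores, a p that misses the threshold does not show that a relation was absent. The other 3 with an unadjusted p under 0.05 were Cacng8 (r = -0.84), Cacna1b (r = 0.76) and Cacng2 (r = 0.74), all undetected in the tumours.

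**Figure D4:**
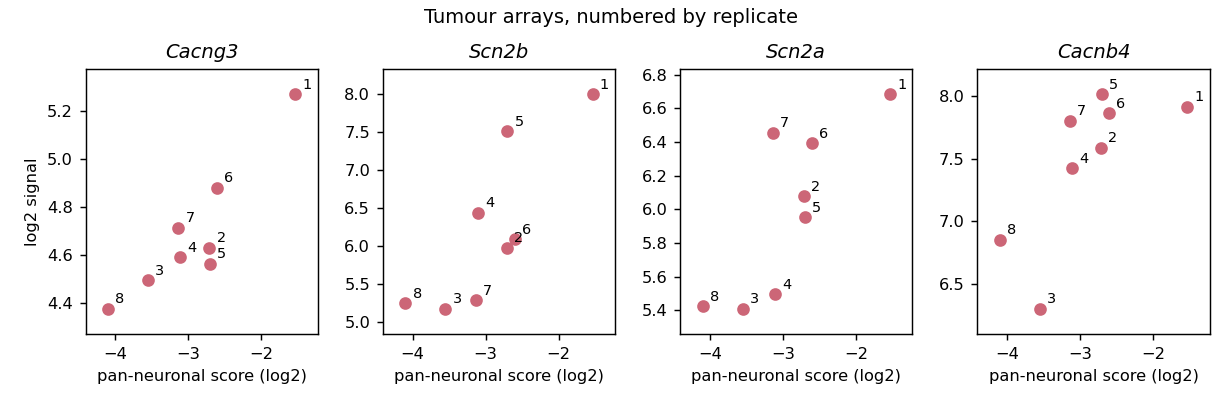
Log2 signal of 4 channel genes against the pan-neuronal score of the same array, over the 8 tumours, each point numbered by replicate. Tumour 1 has the highest score, -1.53, and tumour 8 the lowest, -4.10.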

How the data were processed

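Per the labels, RNA was extracted with a Qiagen kit for lipid-rich tissue. The authors deposited mean bead intensity for 45281 probes on each array, not normalized, with a detection p-value for each, per the file headers. Median intensity was 125.7 to 141.7. A second deposited table holds the authors' log2 values for 38563 probes, by a method not given in the sources used here; these differed from the values computed here by at most 0.0603. Here limma 3.58.1 in R 4.3.3 corrected background and normalized the intensities (neqc, offset 16). Probes detected (p under 0.05) on at least 3 arrays were kept, 23131 in all. Platform symbols were updated through Entrez IDs. A model of 3 group means was fitted to 16 arrays by lmFit and eBayes, and p-values were adjusted by Benjamini-Hochberg over 11755 genes. Where no array of the lower group detected a gene, each array's lowest signal among detected probes, or the gene's own if higher, replaced it, and the fold is "at least". The number of arrays limits precision. The code was tested on simulated data.

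Channel genes given with values per array were the 6 largest falls and every rise against both regions, the largest in each subfamily, and the 4 largest each way between regions. Of each partner list the 2 largest fitted changes are given. Cacng2, Cacng5, Cacna1h, Cacna2d1, Scn3a, Pmch, Ank3, Nfasc, Cntn1, Itpr2, Itpr3, Orai1 and Cask were added after their values were seen. The genes, lists and tests were chosen with earlier results of these data known. The arrays lay on 3 chips, each with tumours and controls. Dorsal and ventral controls share replicate numbers, but deviations of same-numbered samples correlated at -0.06 to 0.05, so the numbers were not taken as pairs. Alternatives covered background correction, scaling, the authors' values, the filter, probe choice, array weights, chip, the replicate number and leaving out arrays. Promoter sequences are RefSeq's (GRCm38.p6). Some items of the design and some promoter sequences are not reported here.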

Additional observations from a re-analysis of the deposited data

Results flagged for a closer look

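Of 56 groups examined, the dorsal controls and the tumours for each of the 28 channel genes, 1 held an array that stood apart from the rest of its group by Dixon's test. Chance gives about 1 in 20. The array was dorsal control 5 for Cacnb1, the calcium channel beta subunit, with a log2 signal of 6.27 where the other dorsal controls lay between 5.52 and 5.67. The same array had the lowest pan-neuronal score of the controls, -0.63, and the highest striatal score, 3.08.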

How the results depend on the processing

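In the tumours against both regions, 19 to 22 channel genes passed under each other setting of scaling, filter, probe choice, variance model or block. The filter of detection on at least 8 arrays measured fewer than 28, as it left out Scn7a, Scn11a, Cacna1c and Cacng8. The named genes Scn1a, Scn2a, Scn2b, Scn4b, Cacna1g, Cacna2d3, Cacnb4 and Cacng3 kept their direction and passed under every setting run. Chip 1 holds 1 control of each region and 3 tumours, so each control is assumed to vary like the tumours. There 13 passed against both regions, 9 against dorsal control, 1 against ventral control and 0 between the regions, where limma gave 7 at an unadjusted p under 0.05. Chip 3 holds 1 dorsal control (replicate 5), assumed to vary like the other arrays of that chip, and there 3 passed between the regions and Cacng4 turned to -0.13. Hcn2 was -1.66 within chip 1 (adjusted p = 0.309). Array weights raised the channel gene calls between the regions from 7 to 14. The calls over all genes under that setting are not given here, so the increase is not read as particular to channel genes. Leaving out 1 array at a time gave 18 to 21 calls against both regions, 19 to 20 against dorsal control, 15 to 20 against ventral control and 5 to 9 between the regions. The causes were not tested. Scaling on the median of all probes shifted the median over all genes from 0.01 to 0.15 and left 20 calls. Its share of higher among the calls over all genes was 61.7% (50.6% in the main analysis), 65.4% against dorsal control (51.8%) and 66.9% between the regions (54.5%); scaling on the kept probes, chosen after seeing the data, gave 22 calls and 45.5%. The replicate block, which joins dorsal and ventral controls that share a number, gave 20, 20, 18 and 9 calls in the 4 comparisons and lost Cacng4 (adjusted p = 0.0545). With the pan-neuronal score, 0 correlations passed under each alternative run, as in the main analysis. Genes undetected in 1 group have only a bound, and probes of low signal understate changes.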
